A study of Homo sapiens with 4 samples.

Results

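The short arm of chromosome 3 fell into a densely and a sparsely covered side of H3K9me2 in K562 cells, with a drop between them near 48 Mb. The arm was taken as every peak of the 4 lists that lies on chromosome 3 and ends at or before 90.6 Mb on hg19. It was chosen by its measured coverage in these lists, namely the drop itself and local stretches at 60 to 90 Mb where both knockout libraries exceeded both controls, so these features are given as descriptions with no test. Single values of knockouts and controls are compared by a test only over the whole arm and its distal side, since the stretches were picked on that contrast in the proximal side. The whole arm includes those stretches, so its test is not free of that choice. A fit by window, given further below, ran over both sides, and its proximal windows were open to the same choice. By this rule the arm held 8157 and 7793 peaks in the controls (replicates 1 and 2) against 7624 and 7387 in the knockouts. Together these were 30961 of 1000000 deposited peaks, or 3.10%. The limit cut through no peak, since the last peaks inside it ended between 90229517 and 90308714 and the first outside it started between 93526823 and 93612821.

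H3K9me2 is histone H3 carrying 2 methyl groups on lysine 9. It is laid down mainly by the methyltransferases G9a and GLP, is bound by chromodomain proteins of the HP1 family, and covers broad, mostly silent stretches that often lie at the nuclear lamina. Its domains can span many genes, so its level is usually read over regions rather than at single sites. CUX1 is a homeodomain transcription factor that is lost or mutated in some myeloid leukemias.

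The cells were K562, an established human myeloid leukemia line, grown in RPMI with serum and profiled by CUT&RUN, in which a nuclease held at the mark by an antibody releases DNA fragments for sequencing. Controls (2 libraries) received a CRISPR guide against HPRT. Knockouts (2 libraries) received one against CUX1. All 4 libraries thus share the line and the CRISPR treatment, and results from 1 leukemia line need not hold in other cells. K562 carries many chromosome segments in unequal copy number. Copy number along the arm was not analysed here, and its part in any difference in coverage was not tested. The labels do not tell whether the lines are pools or clones, loss of CUX1 cannot be read from peak lists, and neither can markers of the cell type. The labels number the libraries without saying that they are separate cultures, so p-values here weigh differences only against the scatter of libraries, possibly a technical one.

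Each list held 250000 peaks, and peaks were called per library. Over chromosomes 1 to 22 and X they covered 22.8% and 22.4% in the controls against 14.0% and 19.3% in the knockouts. The weakest listed peak differed between lists, its −log10 p being 1.25 and 1.27 in the controls against 1.49 and 1.35 in the knockouts. The narrowest peak measured 362 and 369 bp in the controls against 263 and 339 bp in the knockouts. Knockout replicate 1 stood apart in all 3 measures. Depth was unknown, since the sources used here give no number of reads behind a list.

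The first question was where the drop lies and how sharply. In 100-kb windows, the boundary that best divides the arm into 2 levels of coverage lay at 48.2 Mb in both controls and in knockout replicate 2, and at 48.4 Mb in knockout replicate 1. On the mean profile it lay at 48.2 Mb, the position used from here on. Windows of 10 kb placed it at 48.24, 48.23, 48.27 and 48.22 Mb in the order control 1, control 2, knockout 1 and knockout 2, a range smaller than 1 window of 100 kb. The 2 levels took up 86.6%, 89.0%, 54.4% and 81.4% of the variance among the 906 windows, in the same order. The split was least clear in knockout replicate 1 and the 4 libraries otherwise gave the same picture.

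**Figure D1:**
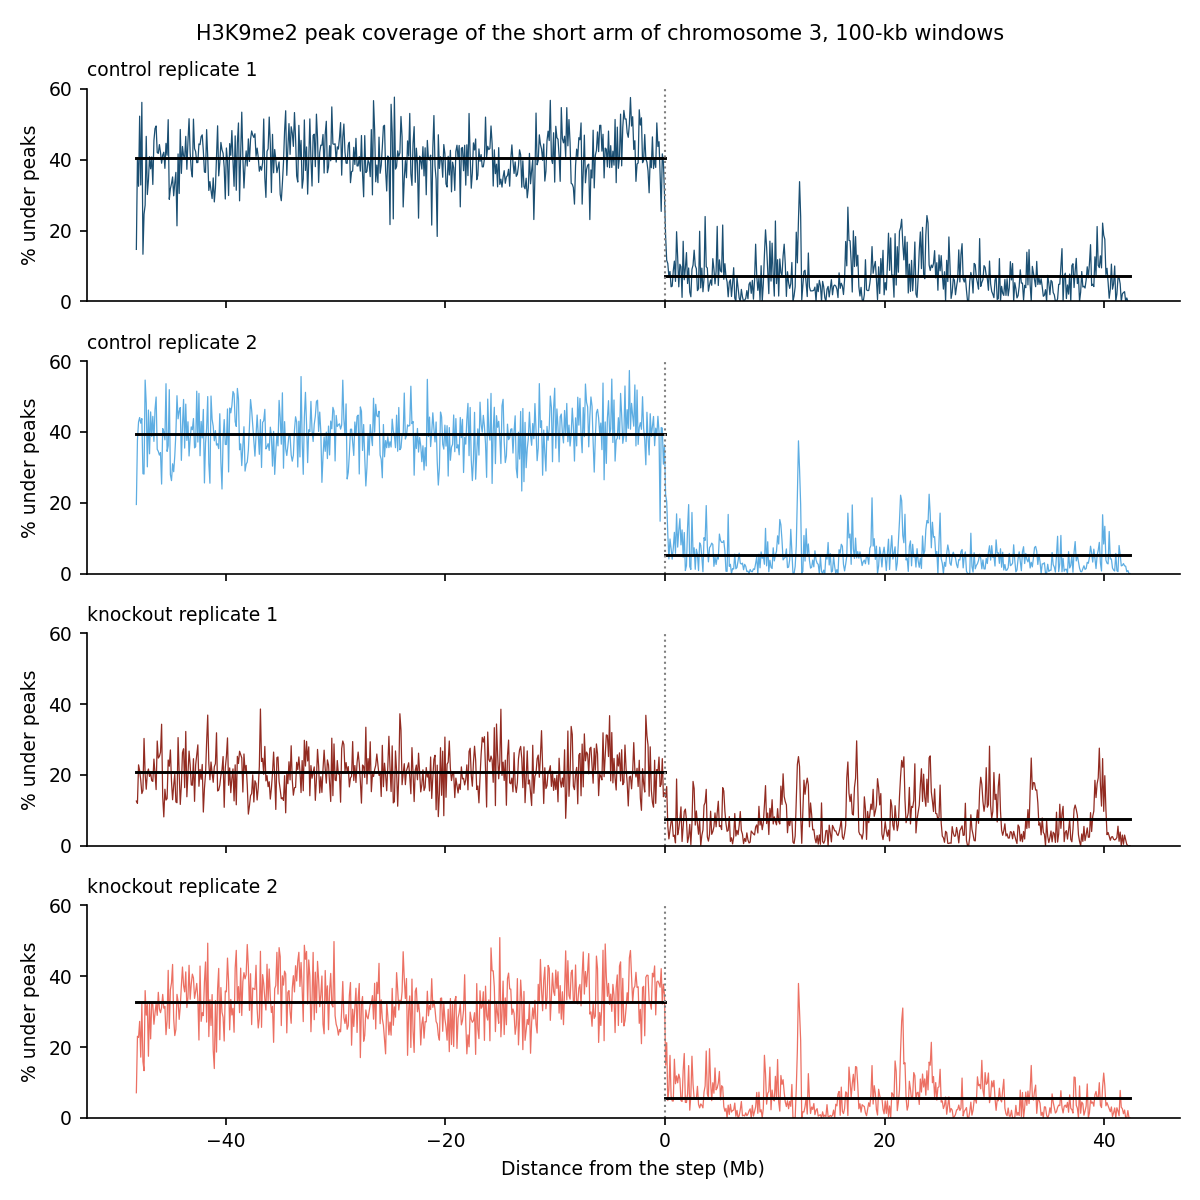
Percent of each 100-kb window of the arm under peaks (vertical axis) against its distance from the step in Mb (horizontal axis), 1 panel per library. Black lines mark the mean of each side, 40.5%, 39.5%, 20.8% and 32.7% to the left and 7.30%, 5.30%, 7.64% and 5.58% to the right from top to bottom, and the dotted line marks the step.

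Near the boundary, coverage was still high just past 48.2 Mb and fell unevenly from there. The last window below the step, chr3:48100001-48200000, was covered to 30.0% and 36.4% in the controls against 14.95% and 34.8% in the knockouts. The next, chr3:48200001-48300000, was covered to 18.5% and 22.3% in the controls against 13.6% and 14.9% in the knockouts. In chr3:48300001-48400000 it was 11.6% and 20.3% in the controls against 16.7% and 21.2% in the knockouts, higher than in the window before in both knockouts. By chr3:48400001-48500000, coverage was 10.7% and 11.1% in the controls against 5.56% and 4.88% in the knockouts. Windows of 10 kb showed a first fall, most clearly in the controls. From 48200001 to 48240000, the 4 windows of control 1 were covered to between 31.9% and 63.6% and those of control 2 to between 21.4% and 55.1%, and the next, chr3:48240001-48250000, was empty in both. In chr3:48250001-48260000 no library had a covered base. Coverage then returned in places, as in chr3:48370001-48380000 with 24.1% and 64.05% in the controls against 40.1% and 33.7% in the knockouts. Of the 100 windows of 10 kb in the 1 Mb below the step, 0 were empty in all 4 libraries, and of the 100 above it 12 were. Averaged over 1 Mb on each side, coverage was 39.0% against 9.04% in control 1, 36.5% against 10.3% in control 2, 19.1% against 6.23% in knockout 1 and 37.1% against 10.9% in knockout 2.

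**Figure D2:**
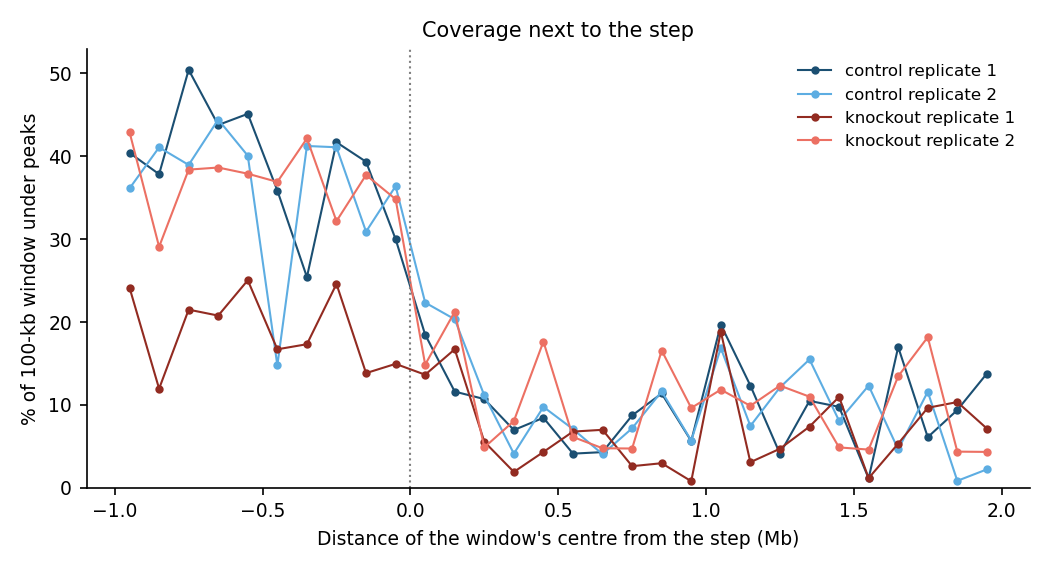
Percent of each 100-kb window under peaks (vertical axis) against the distance of its centre from the step in Mb (horizontal axis), 1 line per library. No line exceeds 19.7% from 0.25 Mb past the step on, and knockout replicate 1 starts from the lowest level, 14.953% in the last window before it.

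The distal side, from the telomere to the step ("below the step" in the plots), was dense and even. Peaks covered 40.5% and 39.5% of it in the controls against 20.8% and 32.7% in the knockouts. The proximal side, from the step to the centromere ("above the step"), was covered to 7.30% and 5.30% in the controls against 7.64% and 5.58% in the knockouts. The distal side was thus 5.55, 7.46, 2.72 and 5.86 times as densely covered in the order control 1, control 2, knockout 1 and knockout 2, the smallest ratio being that of knockout replicate 1. In windows of 1 Mb, coverage of the distal side ran from 32.2% to 48.2% in control 1, 36.0% to 44.4% in control 2, 15.7% to 25.2% in knockout 1 and 22.3% to 38.9% in knockout 2. The coefficient of variation among these windows was 5.41% to 11.8% on the distal side and 43.0% to 59.2% on the proximal side.

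Single 100-kb windows seldom crossed over to the level of the other side. With the midpoint between the 2 side means as the border, 98.3%, 99.6%, 85.3% and 97.4% of the 906 windows lay where their side of the step put them, in the same order of libraries. On the distal side, chr3:1-100000 at the telomere was the 1 window under the border in all 4 libraries. On the proximal side, chr3:60400001-60500000 was the 1 window over it in all 4, covered to 33.8% and 29.5% in the controls against 22.3% and 29.7% in the knockouts. None of the 482 distal windows was without a peak in any library. Of the 424 proximal windows, 27, 22, 10 and 27 had no covered base, and 4 had none in all 4 libraries.

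Peak number made up more of the drop than peak width in each library. The distal side held 139 and 134 peaks per Mb in the controls against 105 and 120 in the knockouts, and the proximal side 34.8 and 31.4 in the controls against 60.2 and 38.2 in the knockouts. On a log2 scale, peak number accounted for 80.7%, 72.2%, 55.7% and 64.5% of the ratio between the sides, and mean width for the rest. Median width was 2469 and 2552 bp on the distal side in the controls against 1621.5 and 2356 bp in the knockouts. On the proximal side it was 1644 and 1265 bp in the controls against 994.5 and 1163.5 bp in the knockouts, narrower than the distal median of the same library in all 4. The median gap between neighbouring peaks was 3346.5 and 3551 bp in the controls against 5176 and 4157 bp in the knockouts on the distal side. Proximal gaps had a median of 16220 and 18157 bp in the controls against 8299 and 14018 bp in the knockouts.

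**Figure D3:**
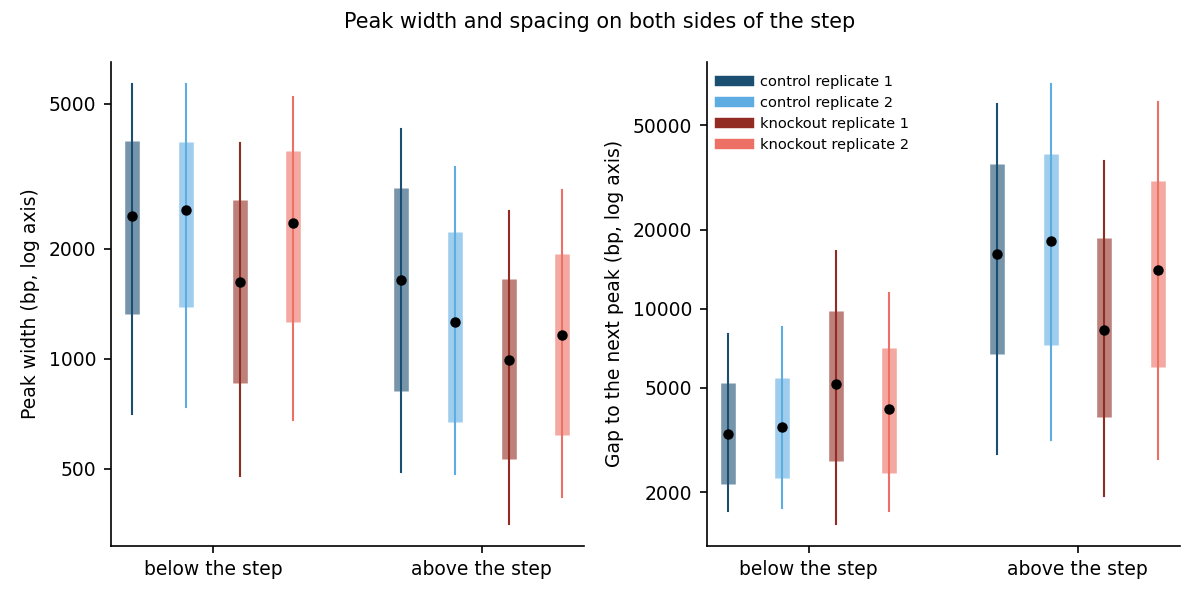
Peak width (left panel) and gap to the next peak (right panel), in bp on log axes, by side of the step and library. Dots are medians, thick bars span the 25th to 75th percentile and thin lines the 10th to 90th. Proximal peaks are narrower and farther apart in every library, and the gaps of knockout replicate 1 differ least between the sides, with medians of 5176 and 8299 bp.

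Broad peaks were concentrated on the distal side. Peaks of at least 5000 bp numbered 939 and 939 in the controls against 222 and 656 in the knockouts there. The proximal side held 86 and 37 such peaks in the controls against 22 and 23 in the knockouts. The widest distal peak of each library measured 19796 bp (chr3:32382370-32402165) and 26196 bp (chr3:14554692-14580887) in the controls, and 12364 bp (chr3:31707720-31720083) and 14319 bp (chr3:18004406-18018724) in the knockouts. The widest proximal peaks measured 14295 bp (chr3:69180293-69194587) and 11047 bp (chr3:60309066-60320112) in the controls, and 9092 bp (chr3:69944416-69953507) and 8147 bp (chr3:52333846-52341992) in the knockouts. Each of the 8 came from a place of its own.

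The median fold of the listed peaks, in contrast to their number, was nearly level across the step. Their median −log10 q was lower on the proximal side in every library. Each list ends at a lowest −log10 p, which bounds the listed peaks of both sides alike, and its part in the level fold was not tested. The median fold, the caller's enrichment over its background as the authors deposited it, was 1.78 and 1.70 on the distal side in the controls against 1.92 and 1.74 in the knockouts. Proximal peaks had a median fold of 1.73 and 1.70 in the controls against 1.96 and 1.78 in the knockouts. Medians of −log10 q were 0.0187 and 0.0404 in the controls against 0.0547 and 0.0579 in the knockouts on the distal side, against 0.00758 and 0.0186 in the controls against 0.0319 and 0.0273 in the knockouts on the proximal side. Most of these peaks were therefore weak by the caller's own measure. Of the arm's peaks, 1, 4, 0 and 14 reached a q of 0.05, and each of these 19 overlapped a peak of at least 1 other library. The strongest, chr3:9772688-9773084 in knockout replicate 2, had a fold of 4.46 and a −log10 q of 7.68, and a peak of control replicate 2 at the same place had a fold of 2.75. On the proximal side, overlapping peaks at chr3:52717227-52721503 reached this q in both controls, with folds of 3.53 and 2.60, and both knockouts also had a peak there.

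The peak names carry running numbers that rise along the arm and skip values. A skipped number was read here as a call that the list of 250000 does not hold, which no source used here states. The numbers ran at 168 and 166 per Mb on the distal side in the controls against 211 and 175 in the knockouts. Proximal numbers ran at 128 and 80.3 per Mb in the controls against 103 and 70.2 in the knockouts. The step was thus lower by these numbers, 1.31, 2.06, 2.04 and 2.49 times in the order of libraries above, than by the listed peaks, which differed by 3.99, 4.27, 1.75 and 3.13 times, except in knockout replicate 1. The share of numbers with a listed peak was 82.6% on the distal and 27.2% on the proximal side in control 1, and 80.9% and 39.1% in control 2. It was 50.0% and 58.4% in knockout 1 and 68.6% and 54.5% in knockout 2. How far the strength at which each list ended sets the height of the step was not tested.

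**Figure D4:**
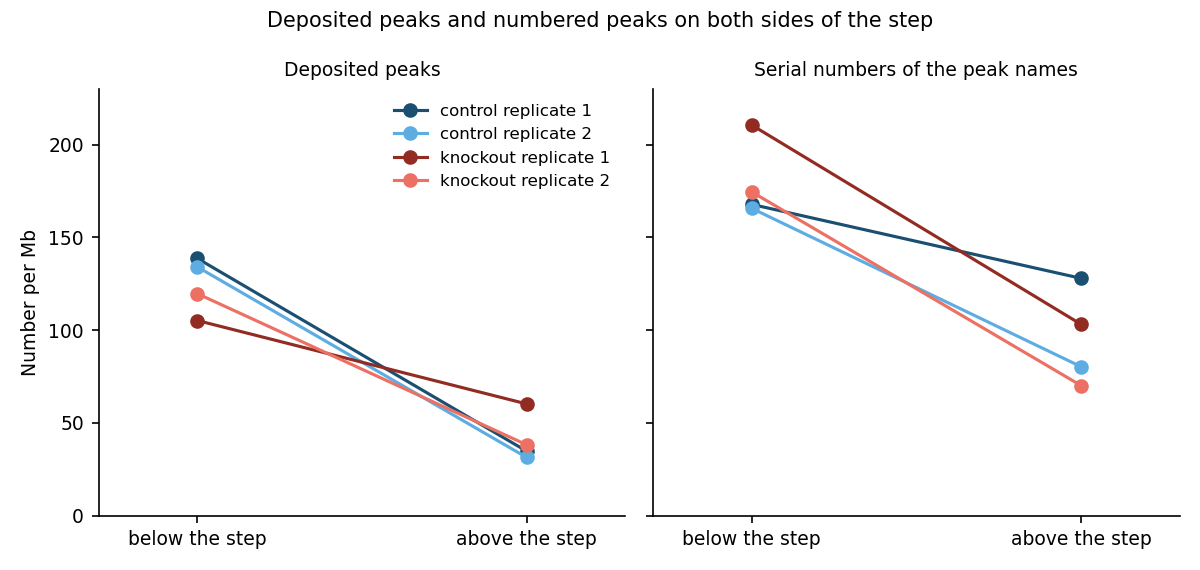
Listed peaks (left) and running numbers of the peak names (right), per Mb on a common axis from 0, on each side of the step, 1 line per library. Listed peaks go from between 105 and 139 to between 31.4 and 60.2 per Mb, and the running numbers from between 166 and 211 to between 70.2 and 128.

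The sides also differed in how far the libraries were alike. Across the 482 distal windows of 100 kb, Pearson's r of percent covered between 2 libraries was between -0.00483 and 0.178 over the 6 pairs. Across the 424 proximal windows it was between 0.468 and 0.641. Neighbouring windows of 1 chromosome are not independent, so these are descriptions. By the Jaccard index of single bases (bases shared by a pair over bases covered in either) the order was the other way. The index was 0.185 to 0.299 on the distal side and 0.0679 to 0.0962 on the proximal side, but it rises with coverage itself. Set against the product of the pair's coverages, shared bases were 1.15 to 1.23 times as many on the distal side and 1.73 to 3.23 times on the proximal side. All 4 libraries covered the same 2.64% of distal bases, where the product of their coverages would be 1.09%, and the same 0.0605% of proximal bases, where the product would be 0.00165%. More bases were thus shared on the distal side, where coverage was higher. Sharing relative to the product, and likeness of the 100-kb profile, were higher on the proximal side. The ratio to the product has less room to rise where coverage is high. Pearson's r tends to be lower where windows vary little, as they did on the distal side. How far this sets the difference between the sides was not tested.

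Within the proximal side, 4 megabases were the densest on the average of the libraries. That starting at 60000001 was covered to 13.8% and 13.3% in the controls against 13.8% and 12.3% in the knockouts, and the others started at 65000001, 69000001 and 72000001. Counted from the sparsest, these 4 ranked between 35 and 41 in each library, so other megabases were denser than some of them in single libraries. The megabase that was sparsest on average, from 55000001, was covered to 2.00% and 1.66% in the controls against 2.80% and 1.63% in the knockouts. A fit with 4 levels set off a raised stretch from 69.5 to 73.3 Mb, covered to 11.8% and 9.02% in the controls against 14.1% and 10.7% in the knockouts. Between it and the centromere, coverage was 5.96% and 3.67% in the controls against 6.46% and 4.09% in the knockouts. The longest stretch with no peak in any of the 4 libraries, chr3:75657886-75922999, spanned 265114 bp, against 50933 bp for the longest on the distal side (chr3:612066-662998).

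Other chromosomes were split by the same procedure to see how the arm compares. Since the arm was chosen for its drop, a high rank by this fit was favoured in advance. Chromosomes were divided at their long peak-free stretches into 41 parts, of which 37 were long enough to be split at a step. The arm's 2 levels took up 89.9% of the variance of the mean profile, ahead of 85.6% for the long part of chromosome 18, 76.5% for the short arm of chromosome 12 and 72.1% for the long arm of chromosome 3. By the ratio of the denser to the sparser side it came second, at 5.07, after the low-coordinate part of chromosome 9, where the ratio of 29.1 went with 8.27% of the variance. When sides were set against sides, the distal side was denser than the denser side of each of the 36 other split parts in both controls, while 3 such sides in knockout 1 and 1 in knockout 2 were denser still. The proximal side was sparser than the sparser side of all but 5, 5, 9 and 7 of these parts, in the same order of libraries.

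The comparison of the groups asked whether H3K9me2 on the arm was lower in the CUX1 knockout, the question in the title of the series. Peaks covered 24.97% and 23.5% of the arm in the controls against 14.6% and 20.0% in the knockouts. The knockout mean differed from the control mean by -6.91 points. The groups did not overlap, with p = 0.3333 in a two-sided exact permutation test, which cannot go lower for 2 libraries against 2. The arm includes the stretches picked on this contrast. Relative to chromosomes 1 to 22 and X in the same library, the arm stood at 1.09 and 1.05 in the controls against 1.05 and 1.04 in the knockouts. On this scale the group means differed by -2.66%, again without overlap. Less mark in every cell and fewer marked cells cannot be told apart in such bulk libraries. The direction depended on where the lists end. With 1 limit on −log10 p (1.49) for all lists, control coverage of the arm was 11.1% and 11.5%. Knockout coverage was 14.6% and 11.9%, so that the knockout mean was 1.96 points higher. That limit is the lowest −log10 p of knockout replicate 1, so it cut peaks from the other lists and none from that one. With 1 limit on −log10 q (0.0335), coverage was 5.98% and 12.9% in the controls against 10.9% and 15.2% in the knockouts.

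In points of coverage, the difference between the groups lay on the distal side. There the knockout mean was 13.3 points below the control mean (26.8% ± 8.44 against 40.02% ± 0.695, SD, n = 2 each), with groups that did not overlap (exact permutation p = 0.3333). In percent of the control mean this was -33.1%. Relative to chromosomes 1 to 22 and X in the same library, the distal side stood at 1.77 and 1.77 in the controls against 1.49 and 1.70 in the knockouts. On that scale the means differed by -10.0%, so much of the distal difference was shared by the whole lists. On the proximal side the means were 6.61% ± 1.45 in the knockouts and 6.30% ± 1.41 in the controls (SD, n = 2 each), and the groups overlapped. Under the common limit on p, the distal side was covered to 19.4% and 19.8% in the controls against 20.8% and 19.6% in the knockouts, so its groups overlapped. Under that limit the proximal side was covered to 1.75% and 2.03% in the controls against 7.64% and 3.11% in the knockouts, with both knockouts above both controls.

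In the lists as deposited, distal peaks were 17.6% fewer per Mb in the knockouts, without overlap (exact permutation p = 0.3333), and proximal peaks 48.8% more numerous. The distal direction reversed with common limits. Under that on p the distal side held 3381 and 3390 peaks in the controls against 5070 and 3602 in the knockouts. As deposited it held 6683 and 6462 against 5070 and 5767, so this limit left knockout replicate 1 as it was. Under the limit on q it held 1885 and 3710 against 4018 and 4513. Proximal peaks numbered 410 and 509 in the controls against 2554 and 897 in the knockouts under the limit on p, so both sides then held more knockout peaks. The knockout median width was -20.8% from the control's on the distal side (exact permutation p = 0.3333) and -25.8% on the proximal side, without overlap on either. Measured in units of each list's smallest peak these differences were -4.52% (exact permutation p = 1) and -9.49%, and the groups overlapped on both sides. The median distal gap was 35.3% longer in the knockouts (exact permutation p = 0.3333) and reversed to -1217 bp under the common limit on p. The median proximal gap differed by -35.1%, and under that limit it was also shorter in the knockouts.

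The height of the step is given by group without a test, since its proximal side was picked on this contrast. The log2 ratio of distal to proximal coverage was 2.47 and 2.90 in the controls against 1.44 and 2.55 in the knockouts, a mean difference of -0.69. Knockout replicate 2 lay between the controls, so the groups overlapped. Without knockout replicate 1 the difference was -0.13 and without knockout replicate 2 it was -1.24, so the value rested on knockout replicate 1. In the other 36 parts the same ratio was taken as the low-coordinate over the high-coordinate side. Its difference there ran from -0.50 to 1.61 with a median of 0.06. Where the high-coordinate side was denser, a positive difference stands for a lower step, so this range mixes directions. By group means, the knockout step was lower on the long part of chromosome 18 (-0.50) and the short arm of chromosome 12 (0.43). It was higher on the low-coordinate part of chromosome 9 (0.54). Taken from the running numbers, the difference for the arm was 0.45 in the other direction.

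Window by window, none of the 892 windows of the arm with a mean coverage of at least 1% passed limma's test at a Benjamini-Hochberg adjusted p of 0.05, where 0.0980% of the 27554 windows of all chromosomes did. In simulated data the same fit found 3% of 200 dense windows lowered by 20 points, and 95.5% of 200 lowered by 40. A count of 0 therefore does not mean that coverage was equal. The smallest adjusted p by limma was 0.0626, in a distal window. At an unadjusted p under 0.05, 148 arm windows (16.6%) were lower in the knockouts and 14 (1.57%) higher, beside 14.3% and 0.697% of all windows. The lower ones lay mostly on the distal side, 135 against 13, and the 14 higher ones were all proximal, where windows were picked on this contrast and nothing is read from their count. The median difference was -13.3 points over the 482 distal windows tested and 0.12 over the 410 proximal ones, beside -5.92 over all windows. In windows of 1 Mb, 0 of the arm's 90 passed limma's test, where 4.21% of all windows passed. At an unadjusted p under 0.05 by limma there were 20 of the 90, beside 486 of all 2826.

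How many arm windows passed depended on the libraries used. Leaving out knockout replicate 2 left knockout replicate 1, which stood apart in the measures of the lists, as the only knockout. The scatter between the knockouts then did not enter the fit. The arm's median difference in that fit was -9.15 points, beside -9.18 over all windows. Without knockout replicate 2, 161 arm windows passed limma's test, 157 lower and 4 higher, beside 8.39% of all windows. Without control replicate 1 the arm's median difference was -4.38 points, beside -5.56 over all windows. Without control replicate 2 it was -6.09, beside -6.10. Without knockout replicate 1 it was -2.80, beside -3.18. In each of these fits the lone library of a group is assumed to vary like the others.

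The windows with the smallest unadjusted p had not passed. Coverage of chr3:46000001-46100000 was 51.9% and 40.7% in the controls against 9.99% and 20.9% in the knockouts (-30.8 points, SE 8.10, limma adjusted p = 0.0626). The other 4 lower ones started at 2700001, 5700001, 18600001 and 25000001, with differences from -30.9 to -27.2 points and adjusted p from 0.0767 to 0.0988 by limma. All 5 lay on the distal side, and in all 5 both knockouts were below both controls. The 5 windows at the higher end lay between 60 Mb and the end of the arm, so they are given as values alone. Coverage of chr3:81500001-81600000 was 0% and 3.18% in the controls against 24.8% and 14.8% in the knockouts, a mean difference of 18.2 points. The windows starting at 78100001 and 77000001 were also higher in both knockouts, by 12.6 and 13.4 points on average. Those starting at 67500001 and 62400001 rested on knockout replicate 1, and without it their differences were 0.534 and -0.299 points.

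From 60 Mb to the end of the arm, windows where both knockouts exceeded both controls were spread over many places. There were 57 among 306 windows, or 18.6%, and in 50 (16.3%) both knockouts were below. Over all 27554 windows these shares were 4.98% and 43.3%, and over the 10879 windows with a mean coverage of 1% to 20% they were 10.3% and 30.0%. Distal to the step the share was 0 of 482 windows above and 313 (64.9%) below. From the step to 60 Mb it was 15 of 118 above. These windows were chosen on the contrast itself, so nothing is read from the counts. Just inside the rule, chr3:66200001-66300000 had 0% and 3.34% in the controls against 3.73% and 3.39% in the knockouts, and just outside it chr3:87400001-87500000 had 7.48% and 1.404% in the controls against 13.6% and 7.47% in the knockouts.

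The 57 windows formed 40 runs, of which 29 were single windows, 6 were pairs and 5 had 3 or more windows. The stretch with the largest mean difference of those 5, chr3:76900001-77200000, was covered to 5.25% and 3.14% in the controls against 16.4% and 10.7% in the knockouts, and held 9 and 8 peaks against 32 and 18. A neighbouring stretch, chr3:77300001-77700000, was covered to 6.62% and 3.60% in the controls against 14.1% and 11.2% in the knockouts. The stretch chr3:69700001-70000000, inside the raised segment described above, had 17.1% and 13.4% in the controls against 23.8% and 24.5% in the knockouts. It was the densest of the 5 in every library. The other 2 were sparse, with 3.28% and 4.14% against 6.80% and 6.52% at chr3:71000001-71300000, and 1.45% and 1.57% against 2.71% and 2.88% at chr3:83500001-83800000. In all 5, both knockouts were also above both controls under the common limits on p and on q. Nothing is read from this, since the stretches were chosen on this contrast. The limit on p is also the lowest −log10 p of knockout replicate 1, so it removed no peak from that library. The pair of windows at chr3:81400001-81600000 had a larger difference than any of the 5, with 2.33% and 2.37% in the controls against 20.2% and 11.4% in the knockouts.

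**Figure D5:**
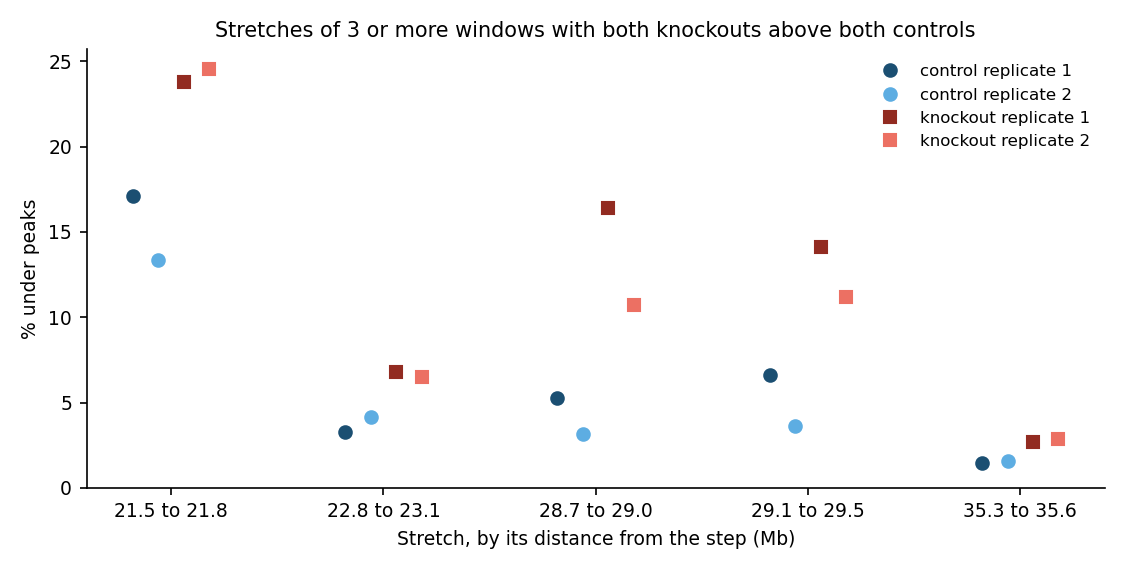
Percent of each stretch under peaks (vertical axis, from 0) for the 5 stretches of 3 or more windows, placed by their distance from the step in Mb; circles are controls and squares knockouts. Both squares lie above both circles in each stretch because the stretches were chosen that way, and the level differs from stretch to stretch, from 1.45% to 24.5%.

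Fold values of the peaks in these stretches were close to those of the whole arm. In chr3:76900001-77200000 the median fold was 1.75 and 1.80 in the controls against 1.93 and 1.78 in the knockouts, and the groups overlapped, as they did at chr3:69700001-70000000. In the other 3 both knockout medians lay above both controls, as at chr3:77300001-77700000 with 1.75 and 1.71 against 1.99 and 1.77. That stretch held 13 and 10 peaks in the controls against 41 and 25 in the knockouts, a contrast that the choice of stretches favours. The highest −log10 q among the peaks of the 5 stretches was 0.25, so no peak there reached a q of 0.05. The lowest −log10 p listed was highest in knockout replicate 1, and its part in these counts was not tested.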

How the data were processed

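H3K9me2 CUT&RUN was represented by 1 list of broad peaks per library on hg19, in 2 control and 2 knockout libraries grouped by their titles. MACS2 2.1.0 is named in the submitters' processing notes, beside deepTools 3.5.1, SAMtools 1.16.1 and BWA 0.7.17. For their settings and for the number of reads, nothing is given in the sources used here. Each peak comes with a score, a fold (ratio of enrichment), a −log10 p and a −log10 q, all as the authors deposited them, and these served here only to describe or filter peaks. "Knockout" follows the labels, although peak names carry the tag "cux1kd" and, in control replicate 1, a "sub" tag that the labels do not explain.

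Overlapping bases were counted once, and positions are counted from 1. Percent covered was computed in 100-kb windows, and the step was the boundary with the smallest residual sum of squares of a fit with 2 levels to the mean of the 4 profiles, each divided by its mean. Peaks were assigned to a side by their midpoint. Windows of chromosomes 1 to 22 and X with a mean of at least 1% were tested together with limma 3.58.1 in R 4.3.3 (eBayes with trend, Benjamini-Hochberg). Log2 side ratios of 37 chromosome parts are given as differences alone, since the arm was chosen with the group contrast in view. Single values of the arm and its distal side were compared by two-sided exact permutation tests. The fits were tested on simulated data. Named windows were the 5 per direction with the smallest p by limma, and named stretches were runs of at least 3 windows. Alternatives were other window sizes, common limits on p and q, quantile normalization, other filters, a replicate block and leaving out each library. Windows of 10 kb, the limit on q for the step, and leaving out libraries for widths, gaps and the windows from 60 Mb were chosen after seeing the data. The members, lists and tests were all chosen with earlier results of these data known. Chromosome Y and the mitochondrial genome were left out. Genes were not placed, since no hg19 annotation was used here.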

Additional observations from a re-analysis of the deposited data

How the results depend on the processing

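On the mean profile the step stayed at 48.2 to 48.25 Mb under all alternatives for its position except windows of 1 Mb, which placed it at 48 Mb. In single libraries the common limit on p placed it at 48.4 Mb in control 2 and both knockouts, and that on q at 48.3, 48.4 and 48.3 Mb in control 2, knockout 1 and knockout 2. The arm's coverage difference reversed to 1.96 points under the common limit on p and 3.60 points under that on q, and the distal gap difference to -1217 bp under the limit on p. The log2 ratio between the sides reversed to 0.45 by running numbers and ranged from -1.24 to -0.13 on leaving out single libraries. The share of windows from 60 Mb with both knockouts above both controls was 31.2% after quantile normalization and 9.68% in windows of 1 Mb. Under the limits on p and q it was 42.2% and 35.6%. The share over all windows is not given for these settings. The median difference over all windows moved too, from -5.92 points to 0.12 with quantile normalization and to 3.325 and 3.85 with these limits. On leaving out single libraries the share was 23.2% to 45.1%, but with fewer libraries the rule is easier to meet. Leaving out single libraries gave 0 to 161 called windows. Why these values moved was not tested. The width differences on both sides and the proximal gap difference kept their direction under every alternative run for them. Of the named windows, the one at 18600001 reversed to 3.76 points under the limit on q, and the one at 62400001 to -0.299 points without knockout replicate 1. Depth was unknown, and 2 libraries per group limit every test.

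The replicate number as a block left the log2 ratio difference at -0.69. Replicate 2 had the higher ratio in both groups, 2.90 against 2.47 in the controls and 2.55 against 1.44 in the knockouts. With the block, 1 window of the arm was called, beside 173 of all 27554 windows and 27 of them without the block. The called window, at 81500001, lies where windows were picked on this contrast. The block was not run for widths and gaps, which come from single values. Deviations of libraries with the same number correlated at 0.0561 over all windows and 0.0459 over the arm. The labels do not say that a number marks a shared batch, and what else such libraries share is not known.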
